A study of Mus musculus with 25 samples.

Results

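The general macrophage and monocyte genes followed here in gonadal white adipose tissue were 10: Cd68, Adgre1, Itgam, Csf1r, Tyrobp, Fcer1g, Laptm5, Cd14, Fcgr1 and Fcgr3. They were chosen by name, with earlier results of these data known. All 10 were found among the 22180 genes measured, each as a single transcript cluster of the array. At 12 weeks, 9 of the 10 were higher in mice on a high-fat diet (HFD) than in mice on a low-fat diet (LFD), from Cd68 with 3.43-fold to Csf1r with 1.64-fold (limma, adjusted p under 0.05; 3.13% of all genes were called higher there). Cd14, the co-receptor for lipopolysaccharide, did not pass the test at any time. At 8 weeks 5 of the genes were higher (1.17% of all genes), and at 4 weeks 0 of 10 passed (0.189% of all genes were called higher).

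The samples came from male mice heterozygous for apoE3L.CETP, that is, animals carrying the human lipid-handling transgenes APOE*3-Leiden and CETP, and every group, the chow group included, carried them. From the age of 12 weeks the HFD groups received 60% fat, 20% carbohydrate and 0.25% cholesterol for 4 weeks (3 arrays), 8 weeks (4 arrays) or 12 weeks (4 arrays). The LFD groups received 10% fat and 70% carbohydrate for the same times (4 arrays each), and 2 mice on chow, aged 12 weeks, gave the baseline. The labels state ages of 16 and 20 weeks for the groups with 4 and 8 weeks of diet, and 34 weeks for those with 12 weeks of diet. The stated 34 weeks do not match a start at 12 weeks of age and 12 weeks of diet. The groups are therefore named here by time on diet. The HFD and LFD differ in fat and carbohydrate together, and no group separates these. A cholesterol content is stated for the HFD only, so whether the diets differ in it is not known here. The arrays were hybridised with RNA of the whole tissue, so in all results below a change in the number of cells of a type and a change in RNA per cell cannot be told apart.

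Adipose tissue macrophages descend in part from blood monocytes and in part from cells resident in the tissue. They take up lipid and cell debris, and in obese mice they are known to gather around dying adipocytes in crown-like structures. Signals of several of the receptors below pass through short adaptors with an immunoreceptor tyrosine-based activation motif (ITAM), to which the kinase Syk binds. Growth and survival of the cells depend on Csf1r, and their identity on the transcription factor PU.1, encoded by Spi1.

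Because PU.1 acts on many genes of these cells, the promoters of the members were searched for GAGGAA, a core of the PU.1 motif, on both strands (TTCCTC is its reverse). RefSeq sequences of 300 bases (250 before and 50 after the start, build GRCm38.p6) were taken for 6 members, and 5 of them held the letters. Counted per gene in the same way, 31.25% of 27025 genes held them. Counted per promoter, 28.28% of all 32851 promoters of that length did. Of the 6 stretches of 100 bases below, each 5′ to 3′ on the gene's own strand, 5 hold a match, in capitals. The stretches are given to show where the matches lie. A match to these letters is a description and not a binding site, and Fcer1g, without one, is shown beside the others.
Cd68, chr11:69666321-69666420, minus strand, 250 to 151 bases before the start: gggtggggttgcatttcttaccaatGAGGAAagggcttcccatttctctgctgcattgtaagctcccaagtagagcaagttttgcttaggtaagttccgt
Laptm5, chr4:130913216-130913315, plus strand, 100 to 1 bases before the start: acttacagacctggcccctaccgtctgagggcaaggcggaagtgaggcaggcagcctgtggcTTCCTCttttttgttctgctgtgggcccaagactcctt
Itgam, chr7:128062540-128062639, plus strand, 100 to 1 bases before the start: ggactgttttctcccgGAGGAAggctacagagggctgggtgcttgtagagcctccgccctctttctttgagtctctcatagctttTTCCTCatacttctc
Fcgr1, chr3:96293970-96294069, minus strand, 100 to 1 bases before the start: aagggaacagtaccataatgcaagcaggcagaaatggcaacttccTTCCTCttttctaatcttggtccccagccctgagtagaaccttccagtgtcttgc
Fcgr3, chr1:171059404-171059503, minus strand, 100 to 1 bases before the start: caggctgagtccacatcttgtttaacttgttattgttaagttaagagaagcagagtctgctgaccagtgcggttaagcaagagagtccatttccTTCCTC
Fcer1g, chr1:171234350-171234449, minus strand, 100 to 1 bases before the start: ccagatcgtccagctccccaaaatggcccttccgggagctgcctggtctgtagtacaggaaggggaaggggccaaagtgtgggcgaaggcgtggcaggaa
The matches shown began 225 bases before the start in Cd68, 84 and 15 bases before it in Itgam, 55 in Fcgr1, 38 in Laptm5 and 6 in Fcgr3. Cd68 and Itgam each held a further match after the start, 29 and 32 bases into the gene. For Fcgr3 the RefSeq table gives more than 1 start, and the sequence shown goes with the first listed. The Laptm5 stretch also lies inside the annotated gene, which begins at chr4:130912890, so the start used for it is not the outermost.

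All values are the log2 signals deposited by the authors. The medians of the 25 arrays lay between 5.04 and 5.36, and each of the 10 members lay above its array's median in all 25 arrays. RNA of other tissues was present in part of the arrays. Hepatocyte transcripts (17 measured genes such as Alb) averaged above 8 in 11 of the 16 arrays with 8 or 12 weeks of diet: 3 HFD and 2 LFD arrays at 8 weeks, and 3 HFD and 3 LFD arrays at 12 weeks. Epididymis transcripts (10 measured genes) averaged 12.18 in chow replicate 1, 10.63 in HFD 4-week replicate 1 and 5.61 in LFD 4-week replicate 1, against at most 3.95 in the other arrays. All 11 measured adipocyte markers lay above the array median in most of the arrays.

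**Figure D1:**
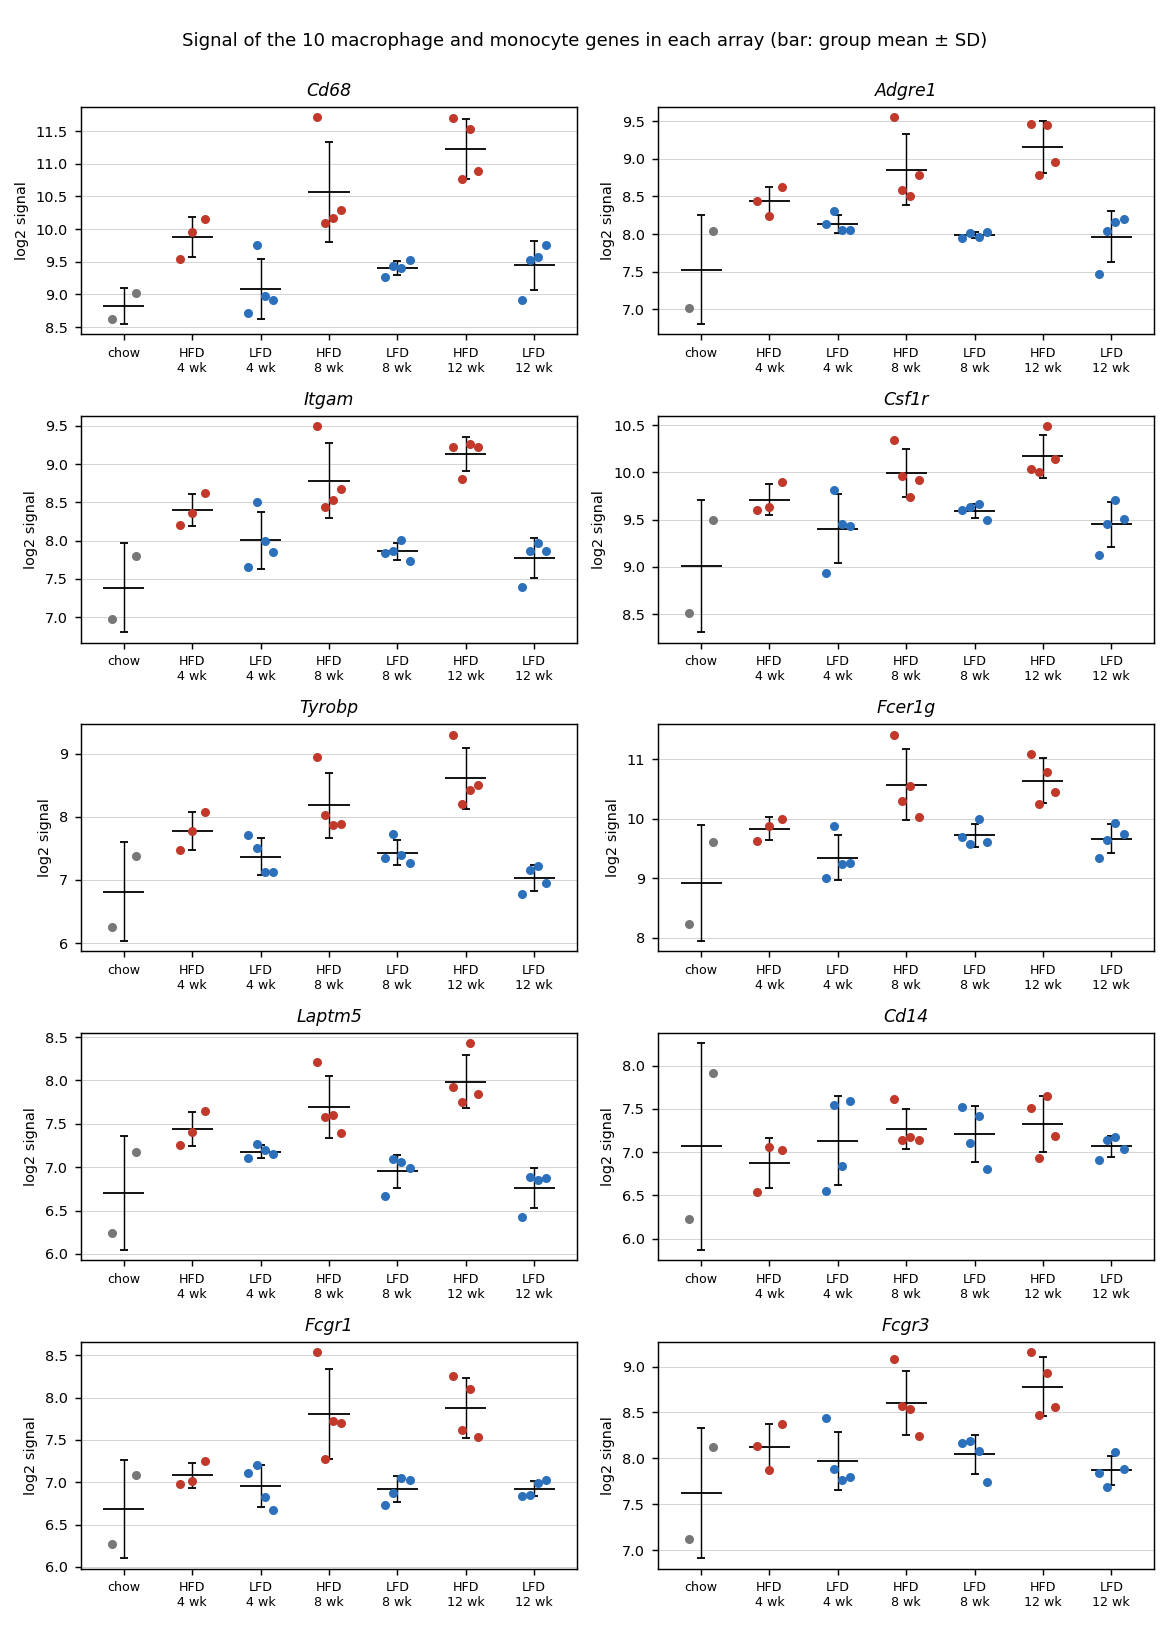
Log2 signal (vertical axes) of each of the 10 genes in each array, by group (horizontal axes), with a bar and whiskers for the group mean ± SD; red is HFD, blue is LFD and grey is chow. At 12 weeks the HFD and LFD points do not overlap for 9 genes (7.52% of all genes were separate in this direction), and they overlap for Cd14.

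Cd68 and Laptm5, which encode lysosomal proteins, were higher in HFD than in LFD at both later times. Cd68 encodes a heavily glycosylated lysosomal protein of phagocytes. At 12 weeks its 4 HFD arrays had 11.70, 10.77, 11.53 and 10.89, against 8.91, 9.53, 9.58 and 9.76 in the 4 LFD arrays. At 8 weeks the HFD arrays had 11.71, 10.10, 10.17 and 10.29, against 9.27, 9.43, 9.40 and 9.52 in LFD. The groups did not overlap at either time, and HFD replicate 1 at 8 weeks stood 1 or more log2 units above the other 3 HFD arrays. Cd68 was higher in HFD by 1.78 ± 0.30 (SE) on the log2 scale at 12 weeks (limma, Benjamini-Hochberg adjusted p = 0.00145) and by 1.16 ± 0.30 at 8 weeks (adjusted p = 0.0413). The 8-week call was lost in 9 of the 25 fits that left out 1 array. The difference of 0.79 ± 0.32 at 4 weeks did not pass (adjusted p = 0.430), and the groups overlapped there (9.54, 9.95 and 10.15 in HFD; 8.72, 9.76, 8.97 and 8.91 in LFD).

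Laptm5 encodes a lysosomal membrane protein of blood cells. At 12 weeks it had 7.92, 7.75, 8.43 and 7.84 in HFD, against 6.42, 6.89, 6.85 and 6.88 in LFD. At 8 weeks it had 8.21, 7.58, 7.60 and 7.39 in HFD, against 6.67, 7.09, 7.06 and 6.99 in LFD. Every HFD array exceeded every LFD array at both times. Its differences were 1.23 ± 0.19 at 12 weeks (adjusted p = 0.000936, the smallest among the 10 genes in that comparison) and 0.74 ± 0.19 at 8 weeks (adjusted p = 0.0421). The 8-week call was lost in 15 of the 25 fits that left out 1 array. The LFD means of Laptm5 were 7.18, 6.95 and 6.76 at 4, 8 and 12 weeks, and the 12-week LFD arrays lay wholly below the 4-week ones. That difference of -0.42 ± 0.19 did not pass (adjusted p = 0.303).

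Adgre1 encodes an adhesion-type receptor, the common surface marker of mouse macrophages, and Itgam encodes CD11b, the alpha chain of complement receptor 3. Both were higher in HFD than in LFD at 8 and 12 weeks. At 12 weeks Adgre1 had 9.46, 8.78, 9.45 and 8.96 in HFD, against 7.47, 8.04, 8.16 and 8.20 in LFD, a difference of 1.20 ± 0.22 (adjusted p = 0.00279). Itgam had 9.23, 8.80, 9.26 and 9.23 in HFD, against 7.39, 7.86, 7.97 and 7.87 in LFD, a difference of 1.36 ± 0.22 (adjusted p = 0.00109). For both genes every HFD array of that time lay above every LFD array. At 8 weeks Adgre1 averaged 8.86 ± 0.48 in HFD and 7.99 ± 0.04 in LFD (SD, n = 4 each; adjusted p = 0.0417). Itgam averaged 8.79 ± 0.49 in HFD and 7.86 ± 0.11 in LFD (SD, n = 4 each; adjusted p = 0.0275). The highest HFD array at 8 weeks was replicate 1 for both, with 9.55 for Adgre1 and 9.50 for Itgam. With 1 array left out, the 8-week call was lost in 11 of 25 fits for Adgre1 and in 4 for Itgam.

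Csf1r, the receptor for the growth factors Csf1 and Il34, moved least of the genes that passed. At 12 weeks it had 10.04, 10.00, 10.49 and 10.14 in HFD, against 9.13, 9.45, 9.71 and 9.51 in LFD. The groups were separate, with a difference of 0.72 ± 0.19 (adjusted p = 0.0333), a call that was lost when any of 6 single arrays of that time was left out. At 8 weeks it averaged 9.99 ± 0.25 in HFD and 9.60 ± 0.07 in LFD (SD, n = 4 each), and the difference of 0.40 ± 0.19 did not pass (adjusted p = 0.376) although no array of one group lay within the range of the other.

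Tyrobp (DAP12) and Fcer1g (the common Fc receptor gamma chain) are the ITAM adaptors. At 12 weeks Tyrobp had 9.30, 8.20, 8.43 and 8.50 in HFD, against 6.78, 7.16, 7.22 and 6.95 in LFD. Fcer1g had 11.08, 10.24, 10.79 and 10.44 in HFD, against 9.34, 9.64, 9.92 and 9.75 in LFD. Neither gene's groups overlapped. Tyrobp was higher in HFD by 1.58 ± 0.26 (adjusted p = 0.00122), second in size to Cd68, and Fcer1g by 0.98 ± 0.28 (adjusted p = 0.0476). The call of Fcer1g was the closest to the threshold and was lost in 18 of the 25 fits that left out 1 array, and with all transcript clusters tested. At 8 weeks neither passed, with 0.75 ± 0.26 for Tyrobp (adjusted p = 0.149) and 0.85 ± 0.28 for Fcer1g (adjusted p = 0.119).

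Fcgr1 encodes the high-affinity receptor for IgG and Fcgr3 a low-affinity one, and both signal through the gamma chain. At 12 weeks Fcgr1 had 8.25, 7.62, 8.10 and 7.53 in HFD, against 6.84, 6.85, 6.99 and 7.02 in LFD. Fcgr3 had 9.16, 8.47, 8.93 and 8.56 in HFD, against 7.84, 7.69, 8.07 and 7.88 in LFD. Again every HFD array was above every LFD array. The differences were 0.95 ± 0.22 for Fcgr1 (adjusted p = 0.0117) and 0.91 ± 0.21 for Fcgr3 (adjusted p = 0.0139). At 8 weeks Fcgr1 had nearly the same difference, 0.89 ± 0.22 (adjusted p = 0.0310), whereas that of Fcgr3, 0.56 ± 0.21, did not pass (adjusted p = 0.196). With 1 array left out, the 8-week call of Fcgr1 was lost in 7 of 25 fits. At 4 weeks the differences were the smallest positive ones of the 10 genes, 0.13 ± 0.23 for Fcgr1 and 0.15 ± 0.23 for Fcgr3. Fcgr3 belongs to a family of related genes, and signal shared with the probes of its relatives was not tested.

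Cd14, which passes lipopolysaccharide to the receptor Tlr4, was the only one of the 10 genes that passed at no time. At 12 weeks it had 7.51, 6.93, 7.65 and 7.19 in HFD, against 6.91, 7.14, 7.18 and 7.04 in LFD. At 8 weeks it had 7.62, 7.14, 7.18 and 7.14 in HFD, against 7.52, 7.10, 7.42 and 6.80 in LFD. At 4 weeks it had 6.54, 7.06 and 7.03 in HFD, against 6.55, 7.54, 6.84 and 7.59 in LFD. The groups overlapped at every time. Its difference was 0.25 at 12 weeks (95% interval -0.33 to 0.83, adjusted p = 0.757), 0.06 at 8 weeks (interval -0.52 to 0.64) and -0.25 at 4 weeks (interval -0.88 to 0.37). Averaged over the 3 times it was 0.02, with an interval of -0.32 to 0.36, and its sign turned in several alternative settings. The upper bound of 0.36 lies below the averaged difference of each of the other 9 genes, of which Csf1r had the smallest, 0.47; the difference between Cd14 and the other genes was not itself tested.

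Counted over the members, 9 of 10 were higher at 12 weeks and 0 were lower, where 3.13% of all 22180 genes were called higher and 1.33% lower. The median difference of the 10 genes was 1.09, against -0.01 over all genes. Groups did not overlap for 9 members, a separation that 7.52% of all genes showed in that direction. At 8 weeks 5 members were called higher (1.17% of all genes), 9 did not overlap (5.01% of all genes) and the median was 0.80. At 4 weeks no member was called, and 0 had separate groups (4.68% of all genes were separate and higher). There 9 of 10 differences were positive, the median was 0.30, and by unadjusted p under 0.05 only Cd68 would have passed. Over the average of the 3 times 9 members were higher (6.03% of all genes), from Cd68 with 1.24 ± 0.18 to Csf1r with 0.47 ± 0.11.

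**Figure D2:**
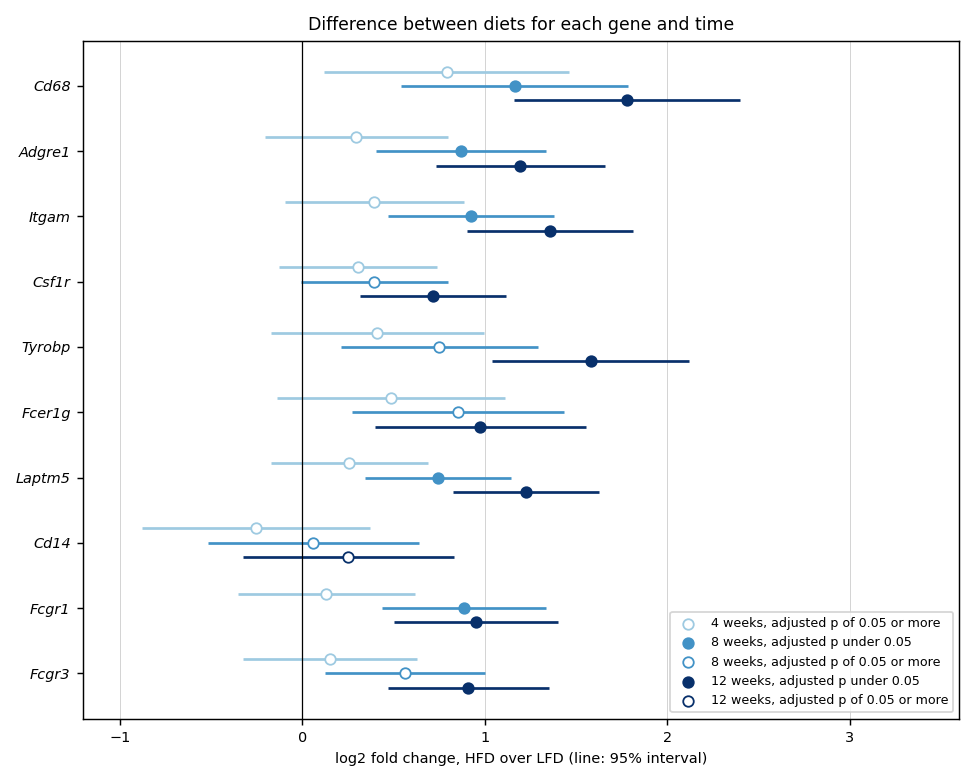
Log2 fold change of HFD over LFD (horizontal axis) for each gene (vertical axis) at 4, 8 and 12 weeks, with lines for the 95% interval; filled points had an adjusted p under 0.05. The 12-week point lies to the right of the 4-week point for all 10 genes, and the intervals of Cd14 include 0 at all 3 times.

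The calls at 8 weeks were less firm than those at 12 weeks. Without HFD replicate 1 at 8 weeks, 0 of 10 genes passed there, and likewise without LFD replicate 1, 2 or 4 of that time; without LFD replicate 3 only 1 passed. At 12 weeks 9 genes passed in the full set, 5 without HFD replicate 1, when Csf1r, Fcer1g, Fcgr1 and Fcgr3 were lost, and 6 without HFD replicate 3, when Csf1r, Fcer1g and Fcgr3 were lost. The count for the average over the times stayed at 9 whichever array was left out.

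Whether the effect of diet changed with time was tested directly. As an interaction of diet and time, 0 of 10 members and 0 of all genes passed (0% of the 22180 genes; 1199 genes and 5 members had an unadjusted p under 0.05 in limma). Those members were Laptm5, Tyrobp, Itgam, Fcgr1 and Adgre1, each with an adjusted p of 0.886 by limma. The gap between diets was larger at 12 than at 4 weeks by 1.17 ± 0.38 for Tyrobp, 0.99 ± 0.44 for Cd68, 0.97 ± 0.28 for Laptm5 and 0.96 ± 0.32 for Itgam. All 10 of these differences were positive, with a median of 0.86, and none passed.

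Within HFD, 9 members had all 4 arrays at 12 weeks above all 3 arrays at 4 weeks, where 6.68% of all genes showed this. None passed the test (0.388% of all genes were called higher), the smallest adjusted p being 0.0627 for Cd68, with a difference of 1.34 ± 0.32. The median of the 10 differences was 0.73. Between 8 and 4 weeks of HFD 0 members passed (0% of all genes) and 3 did not overlap (4.63% of all genes), which were Fcer1g with 0.74 ± 0.30, Fcgr1 with 0.73 ± 0.23 and Cd14 with 0.39 ± 0.30. Between 12 and 8 weeks of HFD 0 members passed (0.0361% of all genes) and 0 were separate (2.7% of all genes in the higher direction). Within LFD no comparison of times gave a call among the members. At 8 against 4 weeks 0 passed (0.636% of all genes), and Adgre1 and Laptm5 were lower without overlap (3.92% of all genes), with a median over the 10 of 0.07. At 12 against 4 weeks 0 passed (0.681% of all genes), and Laptm5 was separate and lower (4.1% of all genes), with a median of -0.08. At 12 against 8 weeks 0 passed (0.0676% of all genes), and Tyrobp was separate and lower (4.28% of all genes), with a median of -0.12. The stated ages were 16, 20 and 34 weeks at 4, 8 and 12 weeks of diet. Time on diet and age therefore cannot be told apart in comparisons of times.

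Ordered by mean, the 3 highest groups were HFD at 12, 8 and 4 weeks, in that order, for the 9 genes other than Cd14, and chow was the lowest group for the same 9. Most neighbours in that order overlapped. Of the 6 steps of each gene, 1 had no overlap in Adgre1 and in Laptm5 (LFD at 4 above LFD at 8 weeks), and 1 in Fcer1g and in Fcgr1 (HFD at 8 above HFD at 4 weeks). In the other 6 genes every group overlapped the next. For Cd14 the order was HFD at 12 weeks, HFD at 8 weeks, LFD at 8, 4 and 12 weeks, chow, and HFD at 4 weeks.

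Against chow, 9 members were higher in the mean of the HFD groups (9.41% of all genes were called higher), from Cd68 with 1.73 ± 0.33 to Fcgr3 with 0.88 ± 0.23. That result rests on 1 of the 2 chow arrays. Chow replicate 1, the array with the epididymis transcripts, was the lower of the pair for all 10 members, with 6.26 against 7.37 in replicate 2 for Tyrobp and 8.23 against 9.61 for Fcer1g. Without it 0 of 10 members passed, and without the 3 arrays with epididymis transcripts only Cd68 did. The mean of the LFD groups against chow gave 0 calls (5.8% of all genes were called higher). That count was not stable either, as it changed without chow replicate 2. The only chow array is then replicate 1, with its epididymis transcripts, so no count is given for that fit. The part of the epididymis RNA in these differences was not tested. The chow mice were 12 weeks old and the stated ages of the diet groups were 16, 20 and 34 weeks, so diet and age cannot be told apart here.

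The members' differences between diets were also read with and without liver transcripts, whose list had a median difference of 2.12 at 8 weeks and -1.55 at 12 weeks. Among the 12-week arrays with hepatocyte transcripts (3 HFD and 3 LFD), the 10 differences were all positive, from 0.18 to 1.72, with a median of 1.06. The 1 HFD and 1 LFD array below the cut of 8 differed by a median of 1.16. They were not alike in liver transcripts, with hepatocyte means of 5.53 in HFD and 7.95 in LFD. At 8 weeks the arrays with hepatocyte transcripts (3 HFD and 2 LFD) gave a median of 0.64 and those without (1 HFD and 2 LFD) a median of 1.53. The hepatocyte means of the latter were 7.23 in HFD and 5.80 and 5.97 in LFD. Arrays without liver transcripts are thus only those below the cut of 8. Within a group, arrays with liver transcripts differed from those without by -1.52 (Cd68) to -0.47 (Csf1r and Cd14) in HFD at 8 weeks, where the comparison rests on the single array without them, replicate 1. The range was -0.24 (Fcgr1) to 0.27 (Fcgr3) in LFD at 8 weeks, -0.59 (Laptm5) to 0.24 (Tyrobp) in HFD at 12 weeks and -0.35 (Csf1r) to -0.09 (Fcgr1) in LFD at 12 weeks. With the liver transcripts as a factor in the fit, 9 members passed at 12 weeks and 6 at 8 weeks. Markers listed for liver macrophages, the Kupffer cells (6 measured genes such as Clec4f), had array means of 5.28 to 7.05. Of these, 0 of 6 were called at 8 or 12 weeks. Their median difference was 0.46 at 8 weeks, with 5 of 6 positive, and -0.50 at 12 weeks, with 1 of 6 positive, the same signs as the hepatocyte list. However, 4 of the 6 lay above the array median in most of the arrays, and Folr2 (mean 9.99) and Marco did so in all 25. How far the list reflects macrophages of the liver or of the fat was not tested. The part of liver RNA in the members' levels was not tested beyond these values.

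**Figure D3:**
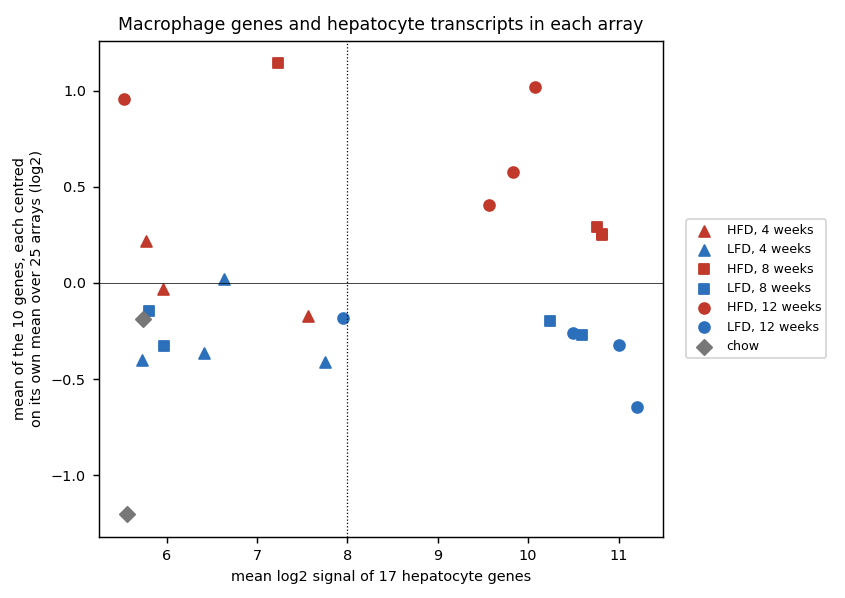
Mean of the 10 genes, each centred on its own mean over the 25 arrays (vertical axis, log2), against the mean log2 signal of 17 hepatocyte genes (horizontal axis) for each array; symbols give the time and colours the diet, and the dotted line marks 8. Above that line all 6 HFD arrays lie higher than all 5 LFD arrays.

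The 9 genes other than Cd14 varied together from mouse to mouse. Over the 25 arrays their 36 pairs had Pearson correlations of 0.78 to 0.96, with a median of 0.90, and after removal of the group means the median was 0.78. The 9 pairs that include Cd14 had 0.40 to 0.61, with a median of 0.46, and 0.63 after removal of the group means. So Cd14 followed the others more closely within groups than across them. These values describe arrays that share groups and carry no test. Some arrays lay at the edge of their group for most members. HFD replicate 1 at 8 weeks and HFD replicate 3 at 4 weeks were the highest, for 10 and 9 genes. The lowest were HFD replicate 2 and LFD replicate 1 at 12 weeks, for 9 genes each, HFD replicate 1 at 4 weeks for 8, and chow replicate 1 for 10. The last 2 of these held epididymis transcripts and enter the correlations above, where their part was not tested. Across all genes, those most like the mean of the 10 over the 25 arrays were Tbxas1 (r = 0.980), Dpep2 (0.976), Slc11a1 (0.975), Cd200r1 (0.975), Selplg (0.973), Cd300lb (0.972), Nckap1l (0.971) and Cyth4 (0.971). Slc11a1 encodes a metal transporter of phagosomes and Selplg the ligand of P-selectin. Their differences between HFD and LFD at 12 weeks ran from 1.08 for Tbxas1 to 1.80 for Dpep2; as the genes were picked for their likeness to the members over the same arrays, these values are a description and no further evidence.

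**Figure D4:**
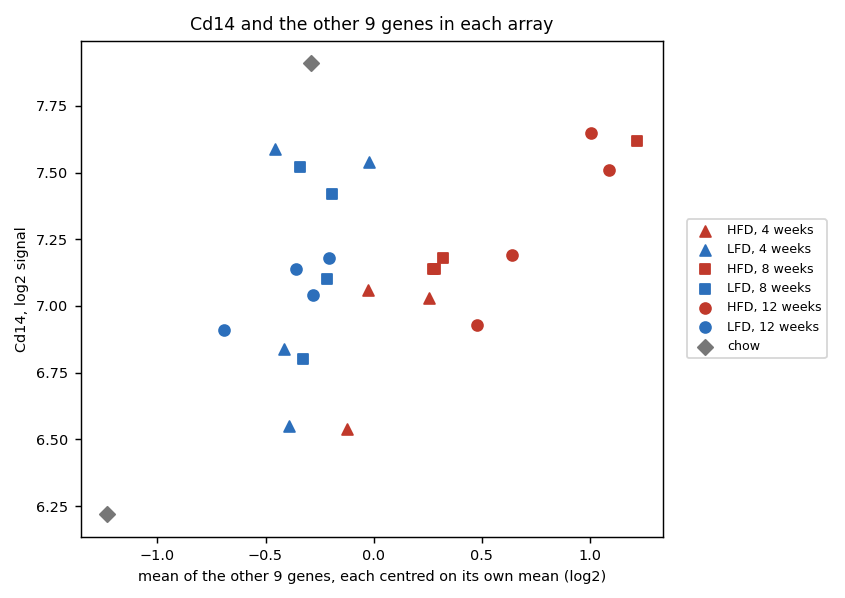
Log2 signal of Cd14 (vertical axis) against the mean of the other 9 genes, each centred on its own mean (horizontal axis, log2), for each array. The 8 HFD arrays of 8 and 12 weeks lie to the right of the 8 LFD arrays of those times, while on the vertical axis the diets overlap.

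Genes that act with the members were taken from 10 lists, which were written with earlier results of these data known; each list's count is to be read against the 3.13% of all genes called higher at 12 weeks. Of 16 other general macrophage genes 10 were higher at 12 weeks (median 0.83). Mpeg1, a pore-forming protein of macrophages, averaged 9.79 ± 0.51 in HFD and 7.91 ± 0.23 in LFD (SD, n = 4 each), a difference of 1.88 ± 0.23 (adjusted p = 0.000290). Ctss, a lysosomal protease, was higher by 1.74 ± 0.28 (adjusted p = 0.00107), Cd53 by 1.44 ± 0.26 and Ptprc, the pan-leukocyte CD45, by 1.30 ± 0.21. Those 4 were also called at 8 weeks, with 1.40 for Mpeg1, 1.43 for Ctss, 1.13 for Cd53 and 0.85 for Ptprc. With 1 array left out, the 8-week calls of Mpeg1 and Ctss were lost in 0 of 25 fits, that of Cd53 in 4 and that of Ptprc in 6, for both without HFD replicate 1 or LFD replicate 1, 2 or 4 of that time, and for Ptprc also without HFD replicate 4 or LFD replicate 3.

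The partners of the adaptors split. Of 13 receptors that pair with Tyrobp or Fcer1g, 5 were higher at 12 weeks and the median was 0.33. On average over the 3 times 5 were higher and 1, not named here, was lower. At 4 weeks 0 were called, and 6 of the 13 differences were positive, with a median of -0.16. Trem2, a lipid-sensing receptor that needs Tyrobp, averaged 8.65 ± 0.63 in HFD and 6.42 ± 0.38 in LFD (SD, n = 4 each), with a range of 8.10 to 9.35 in HFD and 5.96 to 6.75 in LFD. The groups did not overlap, and the difference was 2.23 ± 0.37 (adjusted p = 0.00130). Sirpb1a was higher by 1.66 ± 0.21, Cd300lb by 1.47 ± 0.23, Clec4d, a C-type lectin, by 1.31 ± 0.29 and Klrk1 (NKG2D) by 0.85 ± 0.16. The call of Clec4d was lost without HFD replicate 1 at 12 weeks. Of these, Trem2, Sirpb1a and Cd300lb were also called at 8 weeks. With 1 array left out, that 8-week call of Trem2 was lost in 11 of 25 fits, its difference running from 0.88 to 1.65 around 1.43, and that of Cd300lb was lost in 4, both without HFD replicate 1 or LFD replicate 1, 2 or 4 of that time. The other losses of Trem2 came without LFD replicate 3 at 8 weeks, HFD replicate 1 or 2 or LFD replicate 3 or 4 at 4 weeks, and LFD replicate 2 or 3 at 12 weeks. The call of Sirpb1a was lost in 0. Downstream, 8 of 10 measured ITAM kinases and adaptors were higher (median 0.81): Syk by 1.29 ± 0.18 (adjusted p = 0.000556), the adaptor Blnk by 1.48 ± 0.27, Pik3cd by 0.65 ± 0.12 and Fgr by 0.78 ± 0.16 among them. Among 11 inhibitory receptors and phosphatases, which counter ITAM signals, 6 were higher (median 0.82). These included Clec12a with 1.67 ± 0.30, Inpp5d (SHIP1) with 0.91 ± 0.16, Ptpn6 (SHP-1) with 0.76 ± 0.13 and Lilrb4a with 1.26 ± 0.29, whose call was lost without HFD or LFD replicate 1 at 12 weeks.

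Of the 6 other Fc receptors measured, 0 were called at 4 weeks, 2 at 8 weeks, 1 at 12 weeks and 3 on average, all higher. The 12-week count ran from 0 to 3 over the 41 alternatives and moved by over 1.5 times in 11 of them. The gene called at 12 weeks was Fcgr4, a gamma chain partner, which averaged 6.20 ± 0.56 in HFD and 4.83 ± 0.31 in LFD (SD, n = 4 each; difference 1.37 ± 0.28, adjusted p = 0.00486). Fcgr2b, the inhibitory receptor for IgG, passed at 8 weeks with 0.62 ± 0.12 (adjusted p = 0.00913) and had 0.39 at 12 weeks (adjusted p = 0.0824). Fcgr4 had 1.21 ± 0.28 at 8 weeks (adjusted p = 0.0228), a call lost without HFD replicate 1 or 3 or LFD replicate 1, 3 or 4 of that time. On average Fcgr2b, Fcgr4 and Fcrls passed, with 0.41, 0.90 and 0.42.

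Itgam pairs with Itgb2 to form complement receptor 3, and 5 of 7 genes of the beta2 integrins, their activator and ligands were higher at 12 weeks (median 1.04). Itgb2 averaged 10.37 ± 0.44 in HFD and 8.63 ± 0.37 in LFD (SD, n = 4 each), a difference of 1.74 ± 0.29 (adjusted p = 0.00134). Itgax (CD11c), the alpha chain that marks the macrophages known to accumulate in obese fat, was higher by 2.17 ± 0.33 at 12 weeks (adjusted p = 0.000819) and by 1.75 ± 0.33 at 8 weeks (adjusted p = 0.00650). Fermt3 (kindlin-3), which activates these integrins, was higher by 1.04 ± 0.22 and Itgal by 0.59 ± 0.13. All 5 measured subunits of the phagocyte NADPH oxidase, the enzyme of the oxidative burst, were higher at 12 weeks (median 1.11), such as Cybb with 1.34 ± 0.23 (adjusted p = 0.00179) and Cyba with 1.23 ± 0.23.

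Neither ligand of Csf1r passed the test in the comparisons of the diets at 12 weeks or on average. Csf1 averaged 8.72 ± 0.16 in HFD and 8.50 ± 0.44 in LFD at 12 weeks (SD, n = 4 each; difference 0.22, adjusted p = 0.657). Il34 averaged 7.39 ± 0.26 in HFD and 7.53 ± 0.06 in LFD (SD, n = 4 each; difference -0.15, adjusted p = 0.763). In the same list of ligands and transcription factors 2 of 10 measured genes were higher at 12 weeks (median 0.43), Spi1 by 1.19 ± 0.23 (adjusted p = 0.00396) and Irf8 by 1.02 ± 0.20 (adjusted p = 0.00384).

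The lipopolysaccharide receptor list, to which Cd14 belongs by role, was mixed: 4 of 10 measured genes were higher at 12 weeks and the median was 0.26. Tlr4, the signalling receptor, averaged 7.33 ± 0.14 in HFD and 7.18 ± 0.14 in LFD (SD, n = 4 each; difference 0.15, adjusted p = 0.844). Its partner Ly96 (MD-2) had 0.31 (adjusted p = 0.566), though its average over the 3 times, 0.52, passed (adjusted p = 0.0116). The genes called were Cd180, a Tlr4 relative, with 1.69 ± 0.27 (adjusted p = 0.00111), its partner Ly86 (MD-1) with 1.01 ± 0.20, the adaptor Ticam2 with 0.78 ± 0.18 and Lbp, the lipopolysaccharide-binding protein, with 0.80 ± 0.17. Lbp was called at each time, with 0.79 ± 0.17 at 8 weeks and 1.13 ± 0.19 at 4 weeks (adjusted p = 0.00557), where 0.212% of all genes passed. Lbp is also made by hepatocytes and adipocytes, so it does not mark macrophages. Its call at 4 weeks was lost without HFD replicate 3 of that time, its call at 8 weeks without HFD replicate 1 or LFD replicate 2 or 3 of that time, and that of Ticam2 at 12 weeks without HFD replicate 3.

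Monocyte genes gave 3 calls among 9 measured at 12 weeks (median 0.44): Itga4 with 1.10 ± 0.21 (adjusted p = 0.00333), Ccr2, the receptor by which monocytes leave the marrow, with 0.95 ± 0.19 (adjusted p = 0.00459) and Vcan with 0.44 ± 0.12, whose call was lost in 5 of the 25 fits that left out 1 array. Ccr2 averaged 8.18 ± 0.09 in HFD and 7.24 ± 0.15 in LFD (SD, n = 4 each).

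**Figure D5:**
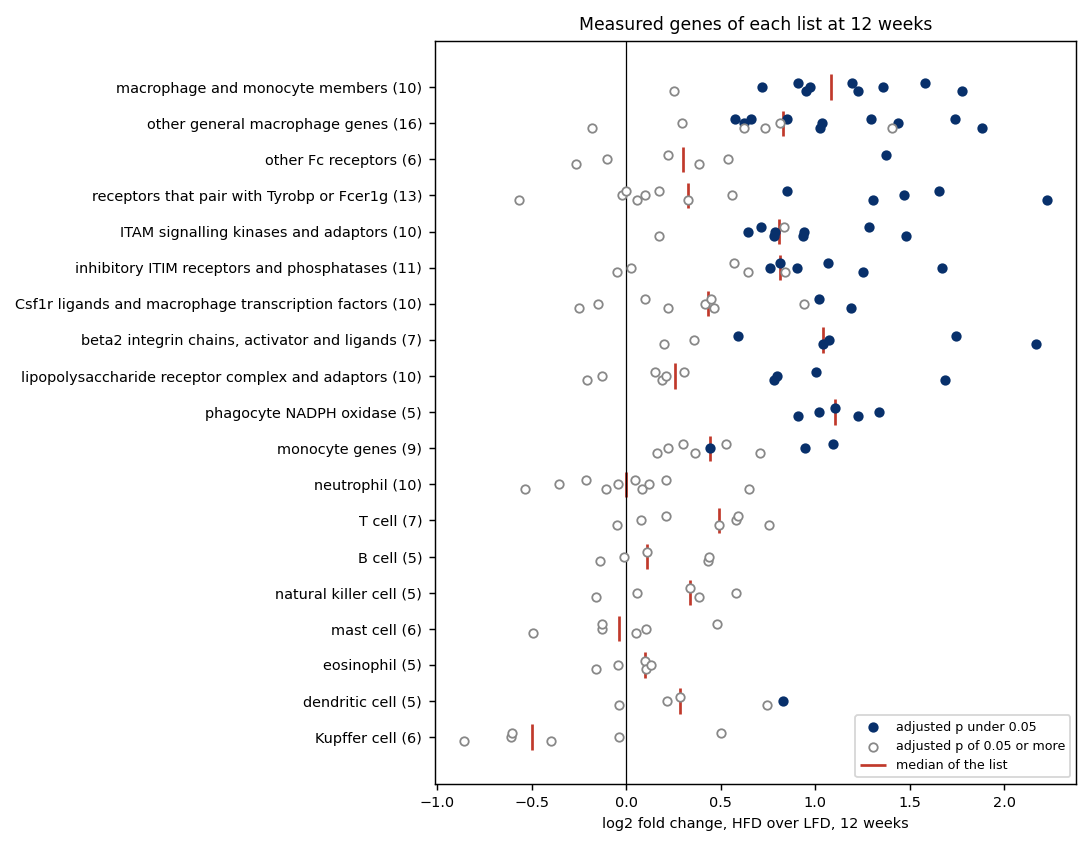
Log2 fold change of HFD over LFD at 12 weeks (horizontal axis) for every measured gene of each list (rows, with the number of measured genes); filled points had an adjusted p under 0.05 and the red line is the list's median. The members have the second highest median, 1.09, after the oxidase subunits with 1.11, while the lists for other blood cells hold 1 filled point at this time, Flt3.

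Several members are not limited to macrophages. Itgam, Fcer1g, Fcgr3, Tyrobp and Cd14 are also made by neutrophils or other blood cells, so markers of those cells were read beside them. Of 10 neutrophil markers 2 lay above the array median in most of the arrays, Csf3r in 24 and Elane in 17 of the 25. S100a8, S100a9, Ngp and Camp were among those that did not. The neutrophil list's array means were 4.31 to 4.53 in HFD and 4.35 to 4.55 in LFD at 12 weeks, and 0 of 10 markers were called there. For B cells (5 measured) and eosinophils (5) no marker lay above the median in most of the arrays, and 0 were called. T cells (7 measured), natural killer cells (5) and mast cells (6) had 0 called markers at 12 weeks. At 8 weeks 1 natural killer marker was called, the granzyme Gzma, with 0.82 ± 0.17 (adjusted p = 0.0117). On average over the 3 times Gzma (0.42) and the T cell co-receptor Cd4 (0.38) were higher, and the mast cell proteases Cpa3 (-0.59) and Tpsb2 (-0.41) and the neutrophil protease Elane (-0.36) were lower. Most T and natural killer markers had positive differences at the later times. The T cell list had 7 of 7 positive differences at 8 weeks (median 0.28) and 6 of 7 at 12 weeks (median 0.49), with array means of 5.28 to 5.99 in HFD and 4.94 to 5.43 in LFD at 12 weeks. The natural killer list had 5 of 5 positive at 8 weeks (median 0.21) and 4 of 5 at 12 weeks (median 0.34), and its array means did not overlap at 8 weeks, with 4.83 to 5.20 in HFD and 4.54 to 4.75 in LFD. Of 5 dendritic cell markers 1 was called at 12 weeks, Flt3, with 0.83 ± 0.19 (adjusted p = 0.0112). The part of these cells in the members' differences was not tested.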

How the data were processed

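RNA of gonadal white adipose tissue was measured on Affymetrix Mouse Gene 2.0 ST arrays, 25 in all, labelled as biological replicates. Per the labels and design text, the authors worked in the Transcriptome Analysis Console 4.0.2 and tested diet by time with an ANOVA (p under 0.05, fold change of at least 1.5). For background correction, summarisation and normalization, nothing is given in the sources used here. Values as deposited, on the log2 scale as judged from their range of 1.73 to 14.13, covered 34472 transcript clusters. Genes were named through the platform annotation: 23521 clusters had 1 symbol, 1814 several and 9137 none. The cluster with the highest mean stood for a gene, which gave 22180 genes; no filter on signal was applied.

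Group means of all 7 groups were fitted with limma 3.58.1 in R 4.3.3 (18 residual degrees of freedom), and contrasts were tested with moderated statistics. P values were adjusted by Benjamini-Hochberg over all genes of a comparison, and a gene was called at an adjusted p under 0.05. Groups were called separate when their ranges did not overlap. The fit was tested on simulated data. With 2 to 4 arrays a group, the number of arrays limits the precision.

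The 10 members and all lists were chosen with earlier results of these data known. Named are all members, from each list up to 4 called genes with the smallest p at 12 weeks and on average, genes whose proteins bind a member, and the 8 genes most like the members. Flt3, Gzma, Cd4, Cpa3, Tpsb2, Elane, Csf3r, S100a8, S100a9, Ngp, Camp, Folr2 and Marco were named after their values were seen. Counts over a list cover its genes measured under a single symbol; the others are not reported here. Alternatives were other normalizations, gene units, moderation, array weights, a replicate block and a fold limit. Further ones were an unadjusted analysis of variance (ANOVA), the liver and epididymis transcripts as terms or splits, and leaving out arrays. That ANOVA used the same fit of 7 groups without moderation, an unadjusted p under 0.05 and a fold change of at least 1.5. The submitters' own ANOVA of diet by time was not rerun.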

Additional observations from a re-analysis of the deposited data

Results flagged for a closer look

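Among the members, 6 values stood far from the rest of their group, out of 50 gene and group combinations with 4 arrays; about 1 in 20 would be picked by chance. Of these, 3 came from HFD replicate 1 at 8 weeks, which was the highest of its group for Cd68 (11.71, the next 10.29), Tyrobp (8.95, the next 8.02) and Cd14 (7.62, the next 7.18). That array had no high hepatocyte transcripts, in contrast to the other 3 of its group. HFD replicate 2 at 12 weeks was the lowest of its group for Itgam (8.80, the next 9.23). LFD replicate 1 at 12 weeks was the lowest for Laptm5 (6.42, the next 6.85), and LFD replicate 1 at 4 weeks the highest for Fcgr3 (8.44, the next 7.88).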

How the results depend on the processing

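For the 12-week comparison 9 members were called in the full set, 7 to 9 under the other settings that kept all arrays, and 5 to 9 with single arrays left out; the arrays without high hepatocyte transcripts, 1 of each diet, gave 0. For the average the count was 9 with every single array left out, 7 with the fold limit or the ANOVA (Csf1r and Fcgr3 lost), and 5 with only arrays without high hepatocyte transcripts. The 8-week count of 5 became 0 with only the compared groups, 0 with arrays centred on their medians, 2 with all transcript clusters, 0 in the arrays with and 0 in those without high hepatocyte transcripts, and 0 to 6 with single arrays left out (0 without HFD 8-week replicate 1 or LFD 8-week replicate 1, 2 or 4; 1 without LFD 8-week replicate 3; 2 without HFD 8-week replicate 4, LFD 4-week replicate 3 or LFD 12-week replicate 2 or 3; 3 without HFD 8-week replicate 3 or LFD 4-week replicate 4). The unadjusted analysis of variance gave 1 at 4 weeks, 4 for the interaction, 2 for HFD at 8 against 4 weeks and 7 for HFD at 12 against 4 weeks. In limma, an unadjusted p under 0.05 alone was reached by 2069, 1199, 1964 and 2485 of all genes in these 4 comparisons, in the same order. The shares of all genes called under the settings of this paragraph are not reported here. Its counts therefore show only how the calls moved. For HFD at 12 against 4 weeks by limma, 1 was called with array weights and 2 with high hepatocyte transcripts as a factor. The count was 1 with hepatocyte and epididymis means as covariates, and 0 to 1 with single arrays left out. HFD against chow gave 0 with array weights, 1 without the 3 arrays with epididymis transcripts and 0 to 10 with single arrays left out; LFD against chow gave 0 to 8. The causes were not tested. With the replicate number as a block, 3 members were called at 8 weeks (Cd68 and Adgre1 lost) and 8 at 12 weeks (Fcer1g lost); the count on average stayed at 9. Same-numbered arrays had a median correlation of 0.05 over 67 pairs (-0.61 to 0.71), so the numbers were not taken to pair mice.

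The sign turned for Cd14 at 4 weeks with the 2 covariates (0.0114), at 8 weeks with array weights (-0.0456) and in arrays with high hepatocyte transcripts (-0.157), and on average with array weights (-0.0674). With single arrays left out, Cd14 ran from -0.0767 to 0.163 at 8 weeks and from -0.0447 to 0.0758 on average, and Tlr4 on average from -0.00389 to 0.0453. In arrays without high hepatocyte transcripts the sign turned for Csf1 at 12 weeks (-0.17) and for Il34 on average (0.0667). The partner genes and lists were recomputed under the same settings, a choice made after seeing the data. Lbp at 4 weeks was no longer called with only the compared groups (adjusted p = 0.273). Rescaling moved the median of all genes by less than 0.05.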
